A study of Mus musculus with 4 samples.

Results

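The genes described here carry peptides to the cell surface on MHC class I molecules. They are H2-K1, H2-D1, B2m, Tap1, Tap2, Tapbp, Nlrc5, Erap1, Calr and Pdia3, and they were measured in mouse LSK cells, a sorted marrow population (lineage marker negative, Sca-1 and c-Kit positive) that contains the blood stem cells and early progenitors. Every array probe whose gene name was 1 of these 10 symbols was taken, each on its own, which gave 13 of the 55681 non-control probes. H2-K1 had 3 probes, Nlrc5 had 2, and the other 8 genes had 1 each.

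Fetal liver cells of embryonic day 14.5 from 4 kinds of mice had been transplanted into lethally irradiated recipients, and LSK cells were sorted from the recipients' marrow. The double mutant, which carries both the TET2 knockdown (TET2KD) and the JAK2V617F transgene, was collected at 13 weeks, JAK2V617F at 16 weeks, TET2KD at 10 weeks and wild type (WT) at 16 weeks. All 4 kinds had the C57B6 background and 5 mice each, and each was represented by 1 array. Whether the 5 mice were pooled, which promoter drives the transgene, and how Tet2 was knocked down are not given in the sources used here.

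MHC class I molecules consist of a heavy chain, here H2-K1 or H2-D1, and the light chain beta-2 microglobulin, encoded by B2m. Peptides cut by the proteasome are pumped into the endoplasmic reticulum by the TAP1-TAP2 transporter and trimmed there by ERAP1. Tapasin (Tapbp), calreticulin (Calr) and the disulfide isomerase ERp57 (Pdia3) hold the heavy chain at the transporter until a peptide is bound, and NLRC5 is a transactivator of class I genes. Interferon-gamma, which signals through JAK1 and JAK2, is a known inducer of the pathway.

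The 60-base probes for the coding part of 4 members show what was hybridised and how far the heavy chain signals can be told apart. Capitals mark the 22 bases that 2 of the H2-K1 probes have in common, so these probes are not independent readings. Coordinates are mm9, as the array files give them.
H2-K1 probe from base 1021 of its transcript, chr17:34133984-34134043, minus strand: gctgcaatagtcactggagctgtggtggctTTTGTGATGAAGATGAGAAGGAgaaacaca
H2-K1 probe from base 915 of an H-2K(d) transcript, unmapped in the array files: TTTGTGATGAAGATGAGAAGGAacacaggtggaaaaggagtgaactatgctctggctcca
Tap1, from base 2020, chr17:34330854-34330913, plus strand: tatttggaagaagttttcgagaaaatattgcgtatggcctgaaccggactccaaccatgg
Nlrc5 probe from base 4062, chr8:97030478-97030624, plus strand: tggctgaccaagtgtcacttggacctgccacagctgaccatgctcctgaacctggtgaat
Pdia3, from base 1562, chr2:121263343-121263402, plus strand: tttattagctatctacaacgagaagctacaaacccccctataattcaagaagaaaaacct

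The H-2K(d) sequence is an allele of another haplotype than that of C57B6 mice. The Nlrc5 probe shown covers a genomic stretch of 147 bases for its 60 letters. Its other probe starts at base 6877 of the same transcript, at chr8:97051105-97051164 on the plus strand. The third H2-K1 probe starts at base 1488, at chr17:34133055-34133114 on the minus strand. Set against the 54 other probes of H2 genes on the array, it had no run of more than 8 bases in common with any of them. The H2-K1 probe at base 1021 also had 29 bases in common with the H2-T23 probe and 14 with an H2-Q8 probe, and the H2-D1 probe had 12 with an H2-K2 probe. Cross-hybridisation among class I heavy chains was not tested. The remaining probes lie at chr17:35403886-35403945 for H2-D1, chr2:121978401-121978460 for B2m, chr17:34353116-34353175 for Tap2, chr17:34065963-34066022 for Tapbp and chr13:74828969-74829028 for Erap1, all on the plus strand, and at chr8:87366192-87366251 on the minus strand for Calr.

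Signals are given as multiples of the 75th percentile of each array's non-control signals, called the scaled signal, and differences are on the log2 scale. Repeated spots of 1 probe on 1 array had a standard deviation of 0.151 to 0.159 log2 units, pooled over the repeated probes of an array. This makes the spread of a difference between single spots 0.22. Probes differ in this: the standard deviation was at most 0.03 for B2m, and ran from 0.05 in JAK2V617F to 0.28 in WT for Tap1. The pooled spread can therefore be too wide for bright probes and too narrow for dim ones. It covers the array alone. With 1 array per genotype there is no measure of the spread between animals, so no p-value is given for a pair of arrays, and a difference of at least 2-fold is called only as a description. The genotypes also differ in weeks after transplantation, apart from JAK2V617F and WT, and genotype and weeks cannot be told apart. Both arrays with the TET2 knockdown were collected earlier (10 and 13 weeks) than both without it (16 weeks). Every difference given for the knockdown is thus also a difference in weeks. In RNA from a sorted population, fewer cells that express a gene and less RNA per cell cannot be told apart either.

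The arrays shared 1 slide and 1 scan day, 49.4% to 54.7% of their spots were well above background, and none was saturated. Tet2 was at 60.3% of the WT signal in the double mutant, 73.1% in JAK2V617F and 27.3% in TET2KD on 1 probe, and at 61.6%, 105% and 56.3% on another. The third Tet2 probe was well above background only in the double mutant, where it was at least 2.36-fold higher than in WT. Of the LSK gate genes, Ly6a, Kit, Cd34, Procr and Cd48 were well above background on all 4 arrays and Slamf1 on none. Kit was 3.52-fold lower in the double mutant, 2.39-fold lower in JAK2V617F and 1.29-fold lower in TET2KD than in WT. Ly6a was in contrast 1.49-fold, 2.28-fold and 2.44-fold higher in the same order. Procr was 2.2-fold, 2.04-fold and 2.6-fold lower in that order. On 1 probe Cd48 was 1.91-fold higher in the double mutant, 3.06-fold higher in JAK2V617F and 3.07-fold lower in TET2KD. Its other probe was 1.77-fold higher, 2.17-fold higher and 1.44-fold lower. Of 7 LSK gate probes compared, 0 were at least 2-fold higher and 2 lower than WT in the double mutant. The counts were 3 and 2 in JAK2V617F, and 1 and 2 in TET2KD.

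The class I heavy chains and the light chain had bright signals that differed little between genotypes. Their 5 probes stayed within 1.22-fold over the 4 arrays, and the 13 member probes were all well above background on all 4.

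H2-D1, a classical heavy chain, had scaled signals of 77.3 in the double mutant, 77.4 in JAK2V617F, 86.3 in TET2KD and 74.9 in WT. The widest difference from WT, 0.20 in TET2KD, was inside the 0.22 spread of single spots, and was 0.36 with quantile normalization. B2m, measured by 2 spots per array, had 76.5 in the double mutant, 83.0 in JAK2V617F, 75.9 in TET2KD and 83.8 in WT. The arrays with the TET2 knockdown were lower, by 0.12 log2 units between the double mutant and JAK2V617F and by 0.14 between TET2KD and WT. Both are inside the 0.15 to 0.16 that the pooled spread gives for 2 spots. With quantile normalization these differences were -0.04 and 0.01, the second with its direction turned. The 2 spots of B2m lay at 75.4 and 77.5 in the double mutant, 82.3 and 83.8 in JAK2V617F, 75.9 and 75.9 in TET2KD, and 83.3 and 84.3 in WT. They did not overlap between arrays with and without the knockdown, and their own standard deviation, at most 0.03, was under the pooled one.

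H2-K1, the other classical heavy chain, gave opposite directions on its probes. The probe at base 1488, with 10 spots per array, had 108 in the double mutant, 109 in JAK2V617F, 108 in TET2KD and 131 in WT. Single spots ran from 102 to 114, 102 to 115 and 99.8 to 118 in those 3 mutants and from 122 to 143 in WT, so every WT spot was brighter than every mutant spot. The mutants were at 82.2%, 83.5% and 82.4% of WT. The probe at base 1021 was in contrast lowest in WT, with 38.3 in the double mutant, 35.5 in JAK2V617F, 36.5 in TET2KD and 31.9 in WT. The probe at base 915 had 13.5, 13.7 and 13.6 in the mutants in the same order and 12.3 in WT. The differences from WT on these 2 probes, 0.14 to 0.27, rest on single spots. The probes place the WT array at opposite ends, and the level of H2-K1 relative to WT has no settled direction here. Both H2-K2 probes were, like the H2-K1 probe at base 1021, lowest in WT, by 0.11 to 0.26.

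**Figure D1:**
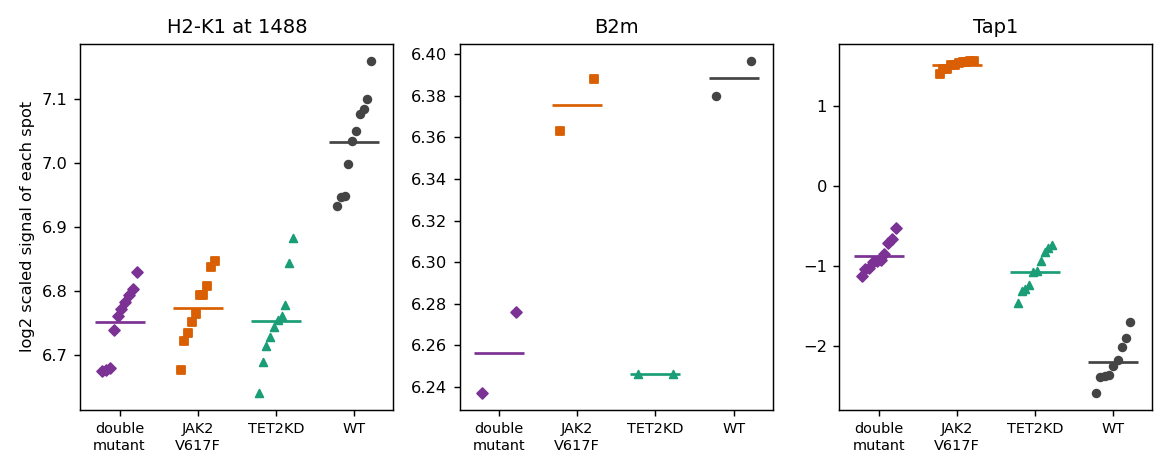
Repeated spots of the H2-K1 probe at base 1488, B2m and Tap1 on the double mutant, JAK2V617F, TET2KD and WT arrays. Each symbol is 1 spot (log2 scaled signal, vertical scales differ), spread sideways by rank, and the line is the mean; Tap1 spots in JAK2V617F (2.63 to 2.96 on the linear scale) lie above all others, and H2-K1 spots in WT (122 to 143) lie above all mutant spots.

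The brightness of these probes bears on how little they differed. Among probes whose mean log2 scaled signal was at least 3, that is at least 8 times the 75th percentile, 6.08% differed at least 2-fold from WT in the double mutant, 5.39% in JAK2V617F and 6.77% in TET2KD, against 37.4%, 35.9% and 42.4% of the dimmer probes. Of 3767 such bright probes detected on all 4 arrays, 83.8% had all 4 arrays within 2-fold of each other, and so had 7 of 7 bright members, which are the 5 above with Calr and Pdia3. With Tapbp, 8 of all 13 member probes had the 4 arrays within 2-fold, and 46.9% of the 22098 probes well above background on every array had them so. That level of 3 was chosen after the values were seen.

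Of all member differences from WT, that of the transporter subunit Tap1 in JAK2V617F was the largest, and the transporter's subunits did not move together. Tap1 had scaled signals of 0.543 in the double mutant, 2.84 in JAK2V617F, 0.474 in TET2KD and 0.218 in WT, from 10 spots on each mutant array and 9 in WT, where 1 outlier spot was left out. Spots ran from 0.456 to 0.69 in the double mutant, 2.63 to 2.96 in JAK2V617F, 0.362 to 0.597 in TET2KD and 0.166 to 0.307 in WT. JAK2V617F stood above all other arrays and WT below them, while the spots of the double mutant and TET2KD overlapped. Tap1 was 2.49-fold higher in the double mutant, 13.1-fold higher in JAK2V617F and 2.18-fold higher in TET2KD than in WT. Tap1 was 1 of 497 probes, 2.25% of the 22098 probes well above background on all 4 arrays, that were highest in JAK2V617F by at least 2-fold over each other array. Another background correction, normexp, narrowed these to 1.42-fold, 4.63-fold and 1.37-fold, under the 2-fold level in the double mutant and in TET2KD.

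Tap2, the partner subunit, had 1.17 in the double mutant, 4.29 in JAK2V617F, 1.21 in TET2KD and 3.95 in WT, each from 1 spot. The arrays fell into 2 pairs, low with the TET2 knockdown and high without it, and the members of each pair differed by at most 0.12. The signal was 3.36-fold lower in the double mutant and 3.26-fold lower in TET2KD than in WT, and 3.66-fold lower in the double mutant than in JAK2V617F.

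Erap1, the trimming aminopeptidase, showed the same pairs with a wider spread. Its scaled signals were 0.246 in the double mutant, 0.645 in JAK2V617F, 0.255 in TET2KD and 0.936 in WT. Erap1 was 3.80-fold lower in the double mutant, 1.45-fold lower in JAK2V617F and 3.67-fold lower in TET2KD than in WT, and 2.62-fold lower in the double mutant than in JAK2V617F. With normexp the differences from WT were 1.96-fold in the double mutant and 1.88-fold in TET2KD, and that between the double mutant and JAK2V617F was 1.54-fold.

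Of the 22098 probes, 217, or 0.982%, were lower by at least 2-fold in both arrays with the TET2 knockdown than in either array without it. Tap2 and Erap1 were 2 of them. The pattern was defined after the members' values were seen, and it rests on the difference between 2 pairs of arrays. These pairs also differ in weeks after transplantation.

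**Figure D2:**
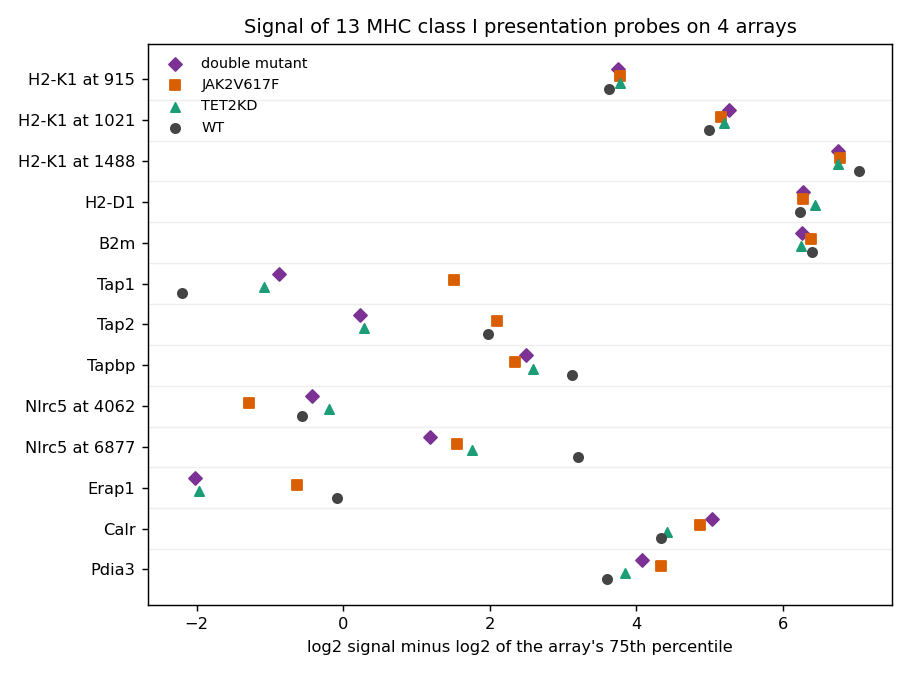
Log2 scaled signal of the 13 probes on the double mutant, JAK2V617F, TET2KD and WT arrays, 1 row per probe and 1 symbol per array; numbers after H2-K1 and Nlrc5 are the probe's first base in the transcript. Symbols are read within a row, since probes differ in brightness for the same amount of RNA; Tap2 and Erap1 split by the TET2 knockdown, and Tap1 is highest in JAK2V617F.

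Tapasin, and the transactivator NLRC5 on the probe nearer its transcript's end, had WT as their brightest array. Tapbp had 5.61 in the double mutant, 5.07 in JAK2V617F, 6.04 in TET2KD and 8.69 in WT. The mutants were at 64.6%, 58.4% and 69.5% of WT, beyond the spread of single spots and short of 2-fold, and lay within 0.25 log2 units of each other.

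The Nlrc5 probe at base 6877 had 2.28 in the double mutant, 2.93 in JAK2V617F, 3.38 in TET2KD and 9.16 in WT. It was 4.02-fold, 3.13-fold and 2.71-fold lower in those mutants than in WT, a pattern of at least 2-fold lower in all 3 that 852 of the 22098 probes, or 3.86%, had. All 3 differences use the same WT spot. The Nlrc5 probe at base 4062 did not have it, with 0.743 in the double mutant, 0.408 in JAK2V617F, 0.875 in TET2KD and 0.68 in WT. Here JAK2V617F was lowest, by 0.74 below WT, and the double mutant and TET2KD were 0.13 and 0.36 above WT. The probes of Nlrc5 disagree in TET2KD and the double mutant, and whether they detect different transcripts was not tested.

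The chaperones calreticulin and ERp57 were brighter in both arrays with the JAK2V617F transgene. Calr had 32.8 in the double mutant, 29.1 in JAK2V617F, 21.3 in TET2KD and 20.1 in WT. It was 1.63-fold higher in the double mutant and 1.45-fold higher in JAK2V617F than in WT, and 1.54-fold higher in the double mutant than in TET2KD. Pdia3 had 16.9 in the double mutant, 20.2 in JAK2V617F, 14.4 in TET2KD and 12.1 in WT, which put the double mutant 1.40-fold and JAK2V617F 1.66-fold above WT but the double mutant only 1.18-fold above TET2KD. The last of these is close to the spread of single spots (0.24 against 0.22 on the log2 scale), and no difference of either gene reached 2-fold. Both proteins also serve glycoprotein folding at large.

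**Figure D3:**
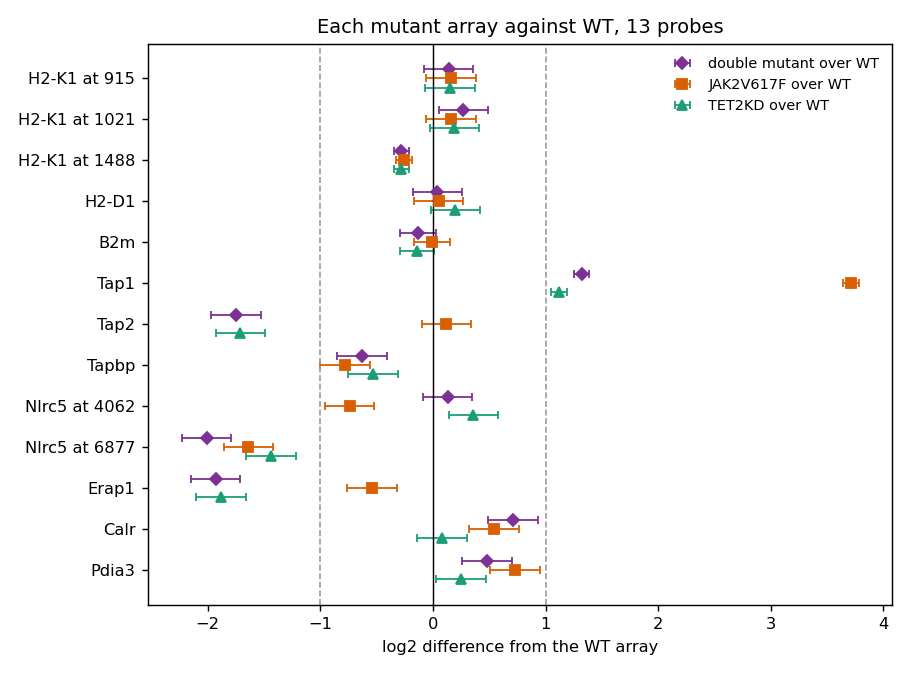
Log2 difference of the double mutant, JAK2V617F and TET2KD arrays from the WT array for the 13 probes. Bars are 1 standard error on each side, from the spread of repeated spots pooled over probes and the number of spots. They are 0.07 for Tap1 and 0.22 for probes with 1 spot, and can be too narrow for dim probes such as Tap1. The spread between animals is left out, and dashed lines mark 2-fold. Tap1 reaches 3.71 in JAK2V617F, and Tap2, Erap1 and the Nlrc5 probe at base 6877 lie below -1 in the double mutant and TET2KD.

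Counted over all 13 member probes, bright and dim together, the share called was near or below that of all probes in each comparison. These shares depend on brightness, since the 7 bright members were within 2-fold throughout and every call fell on a dimmer member. Of all dimmer probes, 37.4% were called in the double mutant, 35.9% in JAK2V617F and 42.4% in TET2KD against WT. The dimmer members are Tap1, Tap2, Tapbp, Erap1 and both Nlrc5 probes. In the double mutant and in TET2KD all of these were called but Tapbp and the Nlrc5 probe at base 4062. That is a larger share than of all dimmer probes, on few probes and at a brightness level chosen after the values were seen. In the double mutant against WT, 1 member probe (Tap1) was at least 2-fold higher and 3 (Tap2, Erap1 and the Nlrc5 probe at base 6877) lower, 4 of 13, where 33.9% of all 33507 probes compared were called (16.3% higher and 17.5% lower). In JAK2V617F against WT, Tap1 was higher and the same Nlrc5 probe lower, 2 of 13, against 32.5% of 33672 (16.1% higher and 16.4% lower). In TET2KD against WT, the same 4 member probes were called as in the double mutant, against 38.2% of 32199 (17.6% higher and 20.6% lower). These 3 comparisons use the same WT array.

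In the double mutant against JAK2V617F, 3 of 13 member probes were called, all lower, where 27.9% of all 33983 probes were called (13.4% higher and 14.4% lower). They were Tap1, at 5.24-fold lower, with Tap2 and Erap1. In the double mutant against TET2KD, 0 of 13 were called, where 37.0% of 32923 probes were (19.4% higher and 17.6% lower), and the widest member difference was the 1.54-fold of Calr. The median size of the member differences was 0.11 log2 units in this comparison, against 0.70 over all probes. In the double mutant, JAK2V617F and TET2KD against WT it was 0.48, 0.54 and 0.28, against 0.63, 0.62 and 0.72 over all probes. The signed medians of the members were 0.04, 0.05 and 0.08 in the same order, against 0.00, -0.01 and -0.03 over all probes.

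At the signal of the members that did differ, differences of at least 2-fold were common. Of probes with a mean log2 scaled signal of 1 to 2, where Tap2 and the Nlrc5 probe at base 6877 lie, 26.8% were called in the double mutant, 26.5% in JAK2V617F and 30.1% in TET2KD against WT. Of those between -1 and 0, where Tap1 lies, 37.6%, 37.3% and 39.7% were called. The 3.71 of Tap1 in JAK2V617F was above the 90th percentile of that signal range, 2.27. In the double mutant, the 2.01 of the Nlrc5 probe and the 1.75 of Tap2 were above the 90th percentile of theirs, 1.68. The other 7 of the 10 calls against WT lay below the 90th percentile of their signal range, among them both calls of Erap1, in whose range of -2 to -1 the 90th percentile was 2.49 in the double mutant and 2.76 in TET2KD.

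**Figure D4:**
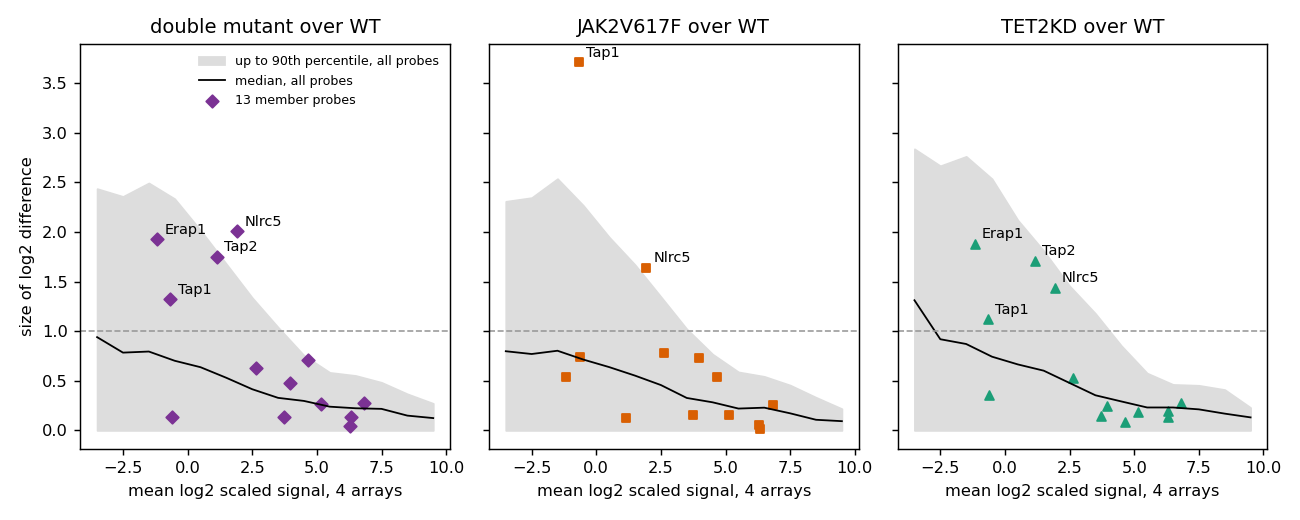
Size of the log2 difference from WT against the mean log2 scaled signal over the 4 arrays, for the double mutant, JAK2V617F and TET2KD. The line is the median and the grey area reaches to the 90th percentile of all probes, taken in steps of 1 log2 unit of signal; symbols are the 13 member probes, named where at least 2-fold, and the 5 heavy and light chain probes stay at 0.28 or below, while Calr (0.71 in the double mutant) and Pdia3 (0.73 in JAK2V617F) lie above the median of probes of like signal and under their 90th percentile.

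The design crosses both lesions, so the effect of each can be set side by side with and without the other. Both arrays with the knockdown were also collected earlier than both without it, and knockdown and time cannot be told apart. For Tap1 the TET2 knockdown went with a signal 2.39 log2 units lower in the presence of JAK2V617F and 1.12 higher in its absence. The difference between these effects, the interaction, was -3.51, an 11.4-fold departure from additive effects, and -2.16 with normexp. The JAK2V617F effect on Tap1 was 0.19 with the knockdown and 3.71 without it. The interaction of the Nlrc5 probe at base 6877 was 1.07, that of Tapbp 0.67, and the other 10 probes lay within 0.50 either way. An interaction of at least 2-fold was seen for 34.9% of the 22098 probes, and 4 arrays allow no test of it.

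A limma fit of 37231 probes with a TET2 knockdown term and a JAK2V617F term, which takes the lesions as additive and uses the interaction as its only residual degree of freedom, called 0.0% of probes and 0 of 13 member probes for either term after Benjamini-Hochberg adjustment. At an unadjusted limma p under 0.05, 1876 of the 37231 probes passed for the knockdown term and 2308 for the JAK2V617F term. With no effect on any probe, a share of about 0.05 would be expected to pass. Tap2 and Erap1 were the 2 member probes among the first, and no member was among the second. For these 2 the fit restates, from the same arrays, the pattern above that was defined after their values were seen. Tap2 had a knockdown effect of -1.79 (95% interval -3.32 to -0.25, limma adjusted p = 0.901), being lower in 2 of 2 arrays with the knockdown. Erap1 had -1.63 (-3.23 to -0.04, limma adjusted p = 0.901), in the same 2 of 2 arrays. The JAK2V617F effect of Tap1 was 1.95 with an interval of -1.71 to 5.61, and that of Calr 0.58 with an interval of -0.95 to 2.11.

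The genes around the pathway were read from lists, whose counts are given as probes at least 2-fold higher and lower than WT. Over all probes compared, 16.3% were higher and 17.5% lower in the double mutant. The shares were 16.1% and 16.4% in JAK2V617F, and 17.6% and 20.6% in TET2KD. Among 15 other loading and trimming factors, 2 probes were higher and 1 lower of 19 in the double mutant, 4 and 0 of 20 in JAK2V617F, and 1 and 2 of 19 in TET2KD. Tapbpl, the tapasin-related peptide editor TAPBPR, had 1.95 in the double mutant, 5.57 in JAK2V617F, 0.8 in TET2KD and 0.508 in WT. Like Tap1 it was highest in JAK2V617F, 11.0-fold above WT, and it was 3.83-fold above WT in the double mutant. Ganab, a glucosidase subunit that trims the glycans calreticulin reads, was 3.25-fold lower in the double mutant and 2.66-fold lower in TET2KD on 1 probe; its other probe differed by 0.08 and -0.93. Uggt1, which re-glucosylates misfolded glycoproteins, was 2.88-fold higher in JAK2V617F on 1 probe and higher by at least 1.06 log2 units on the other, which was below background in WT.

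The inducible proteasome subunits Psmb8, Psmb9 and Psmb10 and the activator subunit Psme1, which supply class I peptides, had 0 of 4 tested probes called in any mutant, and Psme2 had no probe. Psmb9, whose gene neighbours Tap1, had 27.9 in the double mutant, 33.5 in JAK2V617F, 20.3 in TET2KD and 21.8 in WT. It was thus highest in JAK2V617F as Tap1 was, with a difference from WT of 0.62 where that of Tap1 was 3.71. Psmb8 stayed within 0.03 of WT in the double mutant and JAK2V617F and was 0.50 lower in TET2KD.

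Other class I and class I-like heavy chains had 6 probes higher and 5 lower of 31 in the double mutant, 7 and 5 of 29 in JAK2V617F, and 8 and 6 of 27 in TET2KD. H2-M3, which presents formylated peptides, was 3.90-fold higher in the double mutant, 5.32-fold higher in JAK2V617F and 6.23-fold higher in TET2KD. Fcgrt, the heavy chain of the neonatal Fc receptor, was 5.29-fold, 2.91-fold and 4.84-fold lower in the same order. Both pair with beta-2 microglobulin, whose own signal differed from WT by at most 0.14. H2-M3 had a scaled signal of 0.296 in WT, and Fcgrt had 0.24, 0.436 and 0.263 in the mutants in the same order. These are as near to background as Tap1 and Erap1, whose differences narrowed with normexp. Differences of the list genes with normexp are not given here.

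Regulators of class I transcription had 5 probes higher and 4 lower of 28 in the double mutant, 6 and 3 of 27 in JAK2V617F, and 4 and 5 of 26 in TET2KD. Rfx5, a subunit of the factor that binds class I and class II promoters, was 5.69-fold lower in the double mutant and 6.35-fold lower in JAK2V617F on 1 probe, while its other probe differed by -0.13 and 0.24. The first probe was dim in these mutants, with scaled signals of 0.198 and 0.178. Irf8, an interferon regulatory factor of myeloid cells, was 7.90-fold higher in the double mutant and 3.77-fold higher in JAK2V617F. Ifngr2, a subunit of the interferon-gamma receptor, was 2.59-fold lower in JAK2V617F and 4.20-fold lower in TET2KD and differed by 0.03 in the double mutant.

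Interferon response genes went both ways, as all probes did. In the double mutant 10 probes were higher and 7 lower of 38. The counts were 8 and 10 of 39 in JAK2V617F, and 8 and 8 of 37 in TET2KD. Cxcl10, an interferon-induced chemokine, was higher by 3.34 log2 units in the double mutant and by 3.45 in JAK2V617F on 1 of its 2 probes, and by 1.57 and 1.09 on the other. Rsad2, the antiviral protein viperin, was 10.5-fold lower in the double mutant, 8.04-fold lower in JAK2V617F and 4.02-fold lower in TET2KD. Class II presentation genes had 3 higher and 2 lower of 14 in the double mutant, 1 and 5 in JAK2V617F, and 3 and 0 in TET2KD. The median differences of the class II list were 0.41, -0.58 and 0.63, while those of the class I members were 0.04, 0.05 and 0.08.

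**Figure D5:**
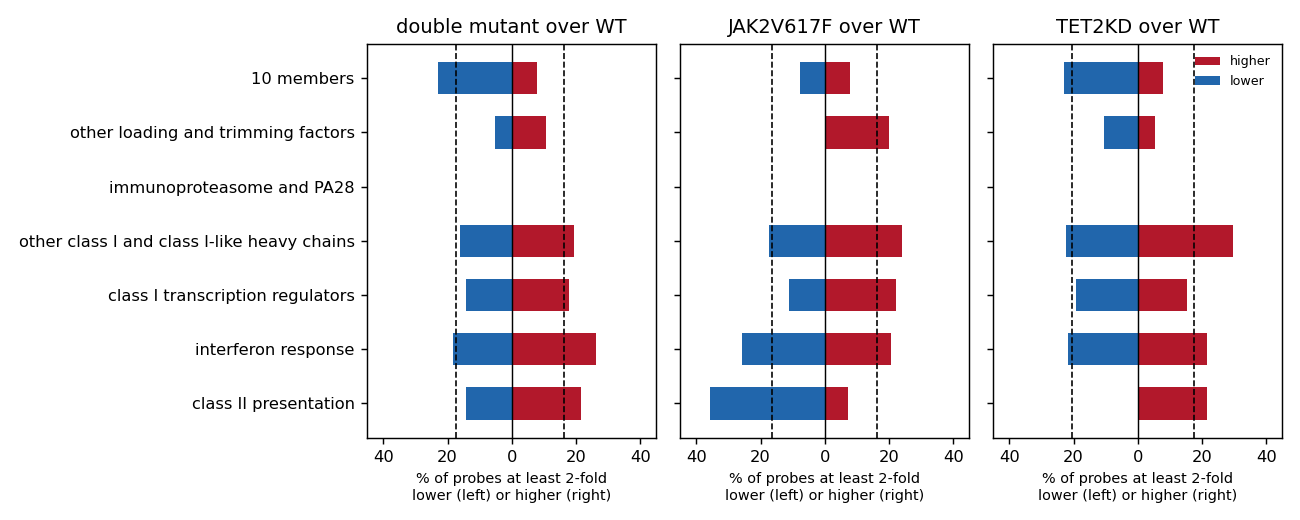
Share of tested probes at least 2-fold lower (left, blue) or higher (right, red) than WT in the double mutant, JAK2V617F and TET2KD, for the 10 members and 6 related lists. Dashed lines mark the same shares over all probes; no probe of the immunoproteasome list is called.

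Markers of more mature cells differed between the arrays, and their part in the members' differences was not tested. The summed scaled signal of 8 neutrophil probes was 65.7 in the double mutant, 22.2 in JAK2V617F, 94.5 in TET2KD and 65.1 in WT, with 4 of 8 higher and 0 lower in the double mutant and 6 of 8 higher in TET2KD. Erythroid markers summed to 10.8 in the double mutant, 0.985 in JAK2V617F, 23.3 in TET2KD and 1.55 in WT. The neutrophil sum was lowest in JAK2V617F, where Tap1 was highest, and the erythroid sum was higher in both arrays with the TET2 knockdown, where Tap2 and Erap1 were low. The low erythroid sum in JAK2V617F rested on Hba-a1 (0.243, against 1.16 in WT), while 5 erythroid probes were well above background in JAK2V617F against 2 in WT, and the median difference of the list was 0.32. B and plasma cell markers summed to 6.51, 4.08 and 8.92 in the mutants and 19.3 in WT, with Ms4a1 below background on all arrays. One Cd79a probe made up 16.5 of the WT sum; the other Cd79a probe was well above background only in the double mutant (1.13) and JAK2V617F (1.17). Of the B and plasma cell probes, 3 were higher and 2 lower of 6 in the double mutant, 2 and 3 of 5 in JAK2V617F, and 3 and 2 of 6 in TET2KD. T and NK cell markers summed to 37.8, 35.3, 24.3 and 40.5 in the double mutant, JAK2V617F, TET2KD and WT, with Cd3d, Cd3g and Cd8a below background throughout. One Nkg7 probe made up 26.3, 25.1, 15.1 and 30.2 of these sums, so they mostly follow that probe. Monocyte, macrophage and dendritic cell markers summed to 394, 391, 489 and 432 in that order, endothelial markers to 10.0, 8.74, 14.4 and 7.49, and LSK gate markers to 63.1, 88.0, 72.2 and 94.5. One Itgam probe made up 307, 317, 394 and 342 of the monocyte, macrophage and dendritic cell sums, so these sums mostly follow that probe. Of the probes of that list, 3 were higher and 3 lower of 16 in the double mutant. The counts were 1 and 5 of 15 in JAK2V617F, and 3 and 2 of 15 in TET2KD.

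Profiles most like those of 3 members were sought among named probes well above background on all 4 arrays, by the root mean square difference of centred log2 signals. The nearest to B2m were Rpl14 (0.015), Ccdc142 (0.016) and Rpl41 (0.017), and 1243 probes lay within 0.15. The nearest to the H2-K1 probe at base 1488 was Rpl22 (0.012), with 1139 probes within 0.15. Near Tap1 were Kat5 (0.227) and Ampd2 (0.263), neither within 0.15. Flat profiles such as that of B2m are common on these arrays, and over 4 arrays a likeness describes these libraries only.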

How the data were processed

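LSK RNA of 4 genotypes was amplified (NuGEN Ovation Pico WTA) and hybridised to 1-colour Cy3 arrays, per the labels' protocols. The deposited intensity values were background-subtracted and detrended per array by Agilent Feature Extraction 10.7.3.1, per the file headers. The authors' deposited log2 table equals log2 of those signals minus 1 constant per array (0 of 55249 single-spot probes off by over 0.001; column medians -2.638 to -2.596), was not centred by gene, and served as an alternative.

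Control and outlier spots were left out, signals divided by each array's 75th percentile, and spots of a probe averaged on the log2 scale. Probes well above background on at least 1 array of a pair were compared; a side below background was set to the higher of that array's lowest well-above-background signal (0.0806 to 0.124 scaled) and its own. Called means at least 2-fold. The additive fit used limma 3.58.1 in R 4.3.3; both steps were tested on simulated data. Named from lists were up to 2 probes each way per mutant with the largest called difference; other list probes, such as Psmb8 and Psmb9, the H2-K2 probes and second probes of a gene, were named after their values were seen. Members and lists were chosen with earlier results of these data known. Gene names are those of the array files; 28026 probes also carried a name by accession (RefSeq, GRCm38.p6, names only), which added no member probe. Some genes that these rules name are not reported here.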

Additional observations from a re-analysis of the deposited data

Results flagged for a closer look

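The TET2 knockdown went with a Tap1 signal 2.39 log2 units lower in the presence of JAK2V617F and 1.12 higher in its absence, a difference of -3.51 between the effects. It stands out because the single arrays move in opposite directions on the 2 backgrounds. With normexp the effects were -1.71 and 0.45, and the difference between them was -2.16. The scaled Tap1 signal in WT, 0.218, lies near the lowest well-above-background signal of that array, 0.124. The difference was not tested, since each genotype has 1 array, and 34.9% of probes well above background on all 4 arrays had an interaction of at least 2-fold.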

How the results depend on the processing

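With normexp background correction (offset 50) in place of the processed signals, 2 member probes were called in the double mutant against WT and 2 in TET2KD against WT, where the processed signals gave 4 each; Tap1 and Erap1 were the calls lost. A 3-fold level left 2 calls in TET2KD against WT. In the other comparisons and under quantile normalization, scaling to the median of detected probes, the deposited log2 table, other filters and 1 probe per gene, counts stayed within 1.5 times. The additive limma fit gave 0 member probes in all 7 settings. No member difference called at 2-fold changed sign in the settings run. Single member differences moved by more than 0.22 log2 units only with normexp (14 of 66, the comparisons between mutants and the Tap1 interaction included, which were added after the data were seen). Over all probes, normexp called 4480 in the double mutant, 4347 in JAK2V617F and 4825 in TET2KD against WT, where the processed signals called 11348, 10932 and 12299. It called 3020 in the double mutant against JAK2V617F and 4411 against TET2KD, where the processed signals called 9466 and 12171. The cause was not tested. At 3-fold the counts were 6172, 5854 and 7013 against WT, and 4710 and 6680 between mutants. Requiring both arrays above background gave 6602, 6610 and 6525 against WT, and 5502 and 6389 between mutants. With no filter or floor they were 18471, 18266 and 17974 against WT, and 16499 and 17679 between mutants, and the medians of all probes against WT were -0.19, -0.21 and 0.17. Leaving out a replicate was not possible with 1 array per genotype, and the additive fit without 1 array has no residual degrees of freedom. No paired analysis was possible because each genotype has 1 array. Erap1, Tap1 and the Nlrc5 probe at base 4062, with scaled signals under 1 on at least 3 arrays, are the members nearest to background.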
